A study of Mus musculus with 8 samples.

Results

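A set of 10 genes whose transcripts mark the epithelium of the choroid plexus was followed through RNA sequencing of the mouse pineal gland. They were Ttr, Enpp2, Folr1, Kl, Prlr, Kcnj13, Kcne2, Slc4a5, Clic6 and Aqp1, and each had 1 row among the 53710 genes of the deposited expression table. They were selected by name, after it was seen in this comparison that Ttr was listed at 0 in every library of the 5xFAD group, to ask what the other 9 did in the same libraries. The values of Ttr are therefore given as a description, with no fold change and no test. The study compared 4 libraries of wild type mice (Normal-11, Normal-21, Normal-22 and Normal-23) with 4 of 5xFAD mice (5xFAD-1, 5xFAD-2, then 5xFAD-3 and last 5xFAD-21), and values are given in this order. All mice were male and 5 months old, and were killed 0.5 h after the lights came on (zeitgeber time). Each library came from the pooled glands of 5 to 7 mice. The 5xFAD mice carry human transgenes with familial Alzheimer mutations, APP among them, driven in neurons by the Thy1 promoter on a C57BL/6 background. The wild type mice were C57BL/6 mice of another supplier, so that supplier and genotype cannot be told apart. The deposited values are FPKM, which count sequenced fragments relative to transcript length and to the size of the library, as computed by the authors. The deposited values hold no read counts, so the depth behind a single value was not used here.

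The choroid plexus is a fold of secretory epithelium over leaky capillaries in the ventricles of the brain. Its cells secrete cerebrospinal fluid by moving sodium, bicarbonate, chloride and water from blood to ventricle, and they load that fluid with carrier proteins, of which transthyretin, the product of Ttr, is the best known. The pineal gland sits on the roof of the ventricle whose choroid plexus lies next to it, and a dissected gland can carry neighbouring tissue. In bulk RNA of this kind, fewer cells of a type and less RNA per cell cannot be told apart.

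The libraries 5xFAD-1 and Normal-22 stood apart for these genes, and each result is given with and without them where that matters. The library 5xFAD-1 was the lowest of all 8 libraries for 9 of the 9 genes other than Ttr, as it was for 15.5% of the 13094 protein-coding genes with a mean of at least 1 FPKM. Normal-22 was the lowest wild type library for all 10, as it was for 33.7% of those genes. Normal-22 also held 13.3 FPKM of Xist, the RNA that coats the inactive X chromosome of females, against 0.00480 to 0.0404 in the other 7 libraries, beside Y-linked transcripts such as Ddx3y at 32.0 FPKM, and so did not match the stated sex of its mice. In both libraries the pineal gland itself was well represented. Tph1, the first enzyme of melatonin synthesis, stood at 1630 FPKM in 5xFAD-1 and 1236 in Normal-22, against 613 to 1900 in the other 6. The share of unread bases was low in Normal-11 and in every 5xFAD library but 5xFAD-21. It was high in 5xFAD-21 and in every wild type library but Normal-11. No label says what this split stands for.

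**Figure D1:**
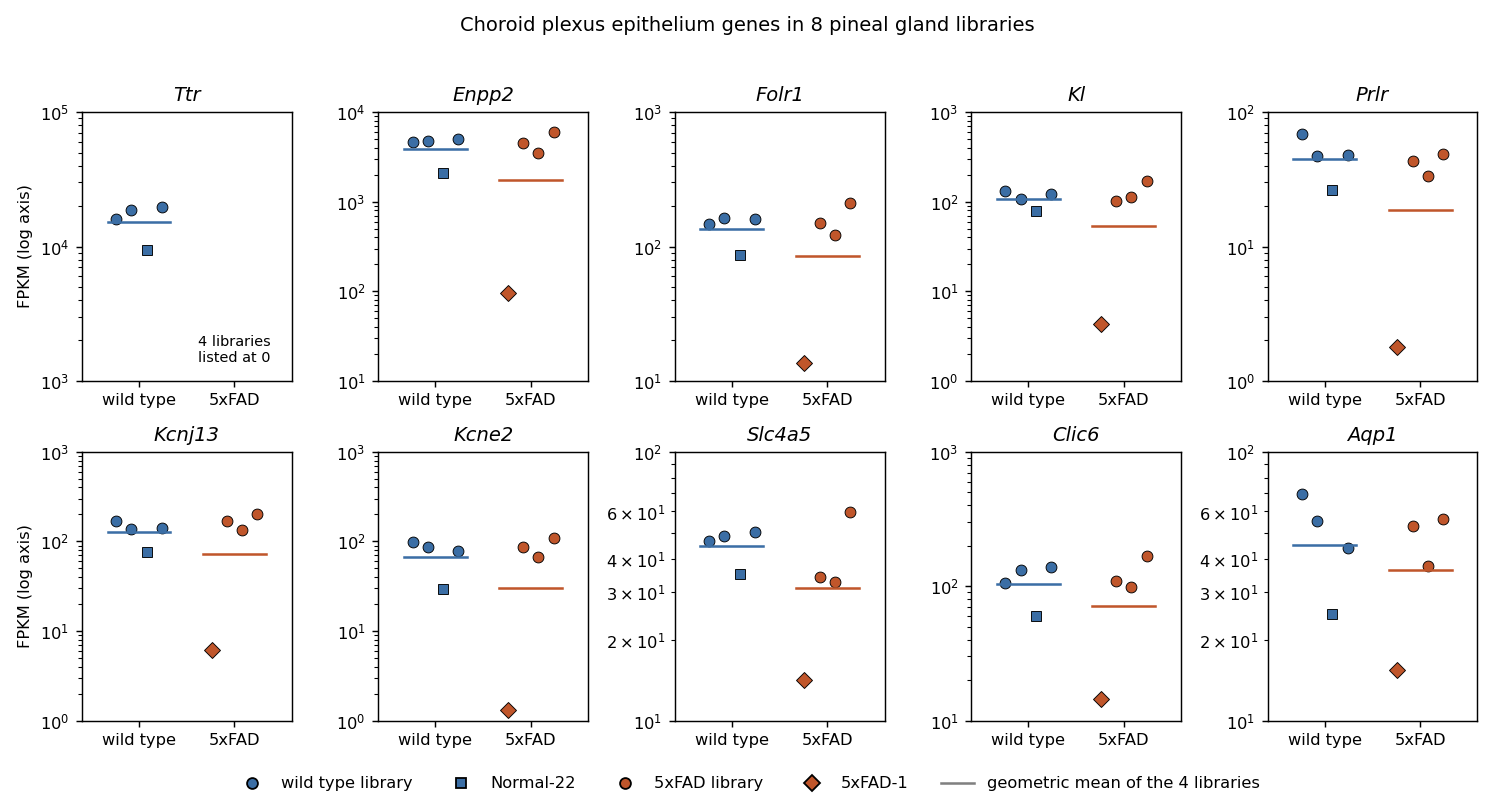
Each panel plots the FPKM of 1 gene on a log axis in the 4 wild type (blue) and 4 5xFAD (orange) libraries, with a line at the geometric mean of each group where no value is 0. Ttr is listed at 0 in all 4 5xFAD libraries, while the other 9 genes are low in 5xFAD-1 (diamond). In 5xFAD-2 and 5xFAD-3 most of the 9 lie within the wild type range, and in 5xFAD-21 7 of them lie above it. Normal-22 (square) is the lowest wild type library in every panel.

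Among the secreted products, Ttr and Enpp2 parted. Ttr encodes transthyretin, which carries thyroxine and the retinol carrier protein and binds amyloid beta. Its level was 15895 FPKM in Normal-11, 18764 in Normal-21, 9440 in Normal-22 and 19630 in Normal-23, and it was listed at 0 in every 5xFAD library. In each wild type library it ranked 1st of 21980 protein-coding genes, and it made up 2.58 to 5.41% of their summed FPKM. Enpp2 encodes autotaxin, a secreted enzyme that makes lysophosphatidic acid. Enpp2 had wild type levels of 4635, 4781, 2073 and 4981 FPKM in the order above, and 5xFAD levels of 95.8, 4568, 3467 and 6058 FPKM, of which the first is that of 5xFAD-1. The groups overlapped. Enpp2 ranked between 2nd and 7th among protein-coding genes in 7 libraries and 546th in 5xFAD-1, so that 3 of the 4 libraries in which Ttr was listed at 0 held a choroid plexus transcript among their most abundant.

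In the wild type libraries Ttr kept a nearly fixed proportion to Clic6 and Folr1. Per FPKM of Clic6 there were 142 to 158 FPKM of Ttr over the 4 libraries, and per FPKM of Folr1 there were 108 to 123. The ratios to the other members varied more, with a highest over lowest wild type value from 1.33 for Enpp2 to 2.01 for Kcne2. The widest ratio was that to Kcne2, at 160 to 320. The ratios to Clic6 and Folr1 held in Normal-22 too, where all 10 genes were low, while that to Kcne2 was highest there. None had a counterpart in the 5xFAD libraries. In 5xFAD-2 the 9 other genes summed to 5315 FPKM, in 5xFAD-3 to 4107 and in 5xFAD-21 to 7087, against 2492 to 5764 in wild type, beside a listed 0 for Ttr. In 5xFAD-1 they summed to 167 FPKM.

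The receptors followed Enpp2. Folr1 encodes the folate receptor that carries folate across the choroid plexus into the fluid. Folr1 had wild type levels of 147, 163, 87.0 and 160 FPKM and 5xFAD levels of 13.6, 149, 122 and 213 FPKM. Kl encodes klotho, the coreceptor of a fibroblast growth factor that controls phosphate, which is also shed into the fluid. Kl had wild type levels of 130, 108, 79.1 and 121 FPKM and 5xFAD levels of 4.27, 103, 113 and 172 FPKM. Prlr, the prolactin receptor, which is thought to carry prolactin into the fluid, had wild type levels of 68.6, 47.4, 26.6 and 48.0 FPKM and 5xFAD levels of 1.77, 43.6, 33.5 and 48.5 FPKM. For all 3 receptors 5xFAD-1 lay far below every other library, and for Folr1 and Kl 5xFAD-21 lay above every wild type library.

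The genes of ion and water transport were lowest in the same library, though some lay less far below the others. Kcnj13 encodes an inward rectifier potassium channel of the apical membrane. Kcnj13 had wild type levels of 167, 139, 77.1 and 143 FPKM and 5xFAD levels of 6.17, 168, 135 and 202 FPKM. Kcne2, an accessory subunit of potassium channels, had wild type levels of 99.6, 86.5, 29.5 and 77.9 FPKM and 5xFAD levels of 1.29, 86.5, 66.4 and 110 FPKM. In 5xFAD-1 these levels were 4.69% and 1.77% of the wild type mean, and Kcne2 had the lowest share of the 9. Clic6, a chloride channel-like protein, had wild type levels of 106, 131, 59.9 and 139 FPKM and 5xFAD levels of 14.3, 110, 99.2 and 168 FPKM. Slc4a5, a sodium bicarbonate cotransporter, had wild type levels of 46.5, 48.7, 35.1 and 50.5 FPKM and 5xFAD levels of 14.1, 34.3, 32.7 and 60.0 FPKM, and was the member for which 5xFAD-2 and 5xFAD-3 also lay below the wild type range. Aqp1, the water channel, which capillaries and red blood cells also carry, had wild type levels of 69.4, 55.1, 24.9 and 43.8 FPKM and 5xFAD levels of 15.4, 52.8, 37.7 and 56.2 FPKM. Slc4a5 and Aqp1 kept 31.2% and 31.9% of the wild type mean in 5xFAD-1, the highest shares of the 9.

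The 250 bases before the transcription starts of Kcnj13 and Kcne2 are shown, from the RefSeq promoter table (GRCm38.p6). Of the 6 genes with a window, these were the only 2 with the letters TAATC or their complement GATTA, given in capitals. A second window of Kcne2 and those of Kl, Aqp1, Slc4a5 and Prlr held no such letters. These letters are the core that homeodomain factors such as Otx2, which choroid plexus and pinealocytes share, prefer. Kcnj13 lies on the minus strand and its window is chr1:87394730-87394979, and the first start of Kcne2 lies on the plus strand with the window chr16:92292139-92292388.
Kcnj13: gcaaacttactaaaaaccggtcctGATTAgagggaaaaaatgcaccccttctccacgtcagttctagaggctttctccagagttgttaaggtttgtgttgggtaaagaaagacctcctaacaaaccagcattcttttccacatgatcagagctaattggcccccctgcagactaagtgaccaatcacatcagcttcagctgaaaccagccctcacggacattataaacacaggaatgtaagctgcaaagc
Kcne2: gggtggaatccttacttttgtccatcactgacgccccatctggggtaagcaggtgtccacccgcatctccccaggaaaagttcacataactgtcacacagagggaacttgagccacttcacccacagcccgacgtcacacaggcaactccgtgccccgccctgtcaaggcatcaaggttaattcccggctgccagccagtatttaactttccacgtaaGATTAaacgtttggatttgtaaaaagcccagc
A single match was found in each, 226 bases before the start of Kcnj13 and 32 bases before that of Kcne2. Windows were found for 6 of the 9 genes, 9 windows in all, and 2 of these 9 held the letters on either strand, against 19.8% of the 32851 windows of the table. The longer TAATCC or GGATTA, of which TAATC and GATTA are a part, was in none of the 9 windows and in 6.25% of all. The letters were chosen after the values were seen, and a match describes the sequence and not a site of binding. Folr1, Clic6 and Enpp2 had no window.

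Set against the wild type group library by library, the 9 genes other than Ttr gave a different picture in each 5xFAD library. In 5xFAD-1 all 9 were below the wild type range, at 1.77 to 31.9% of the wild type mean with a median of 4.69%. In 5xFAD-2, 7 of the 9 were within the wild type range, 1 was above it and 1 below it, at 75.8 to 127% of the wild type mean. In 5xFAD-3, 8 were within and 1 was below, at 70.2 to 103%. In 5xFAD-21, 7 were above the wild type range, where 21.8% of all genes lay, and 2 within it, at 102 to 156% of the wild type mean with a median of 150%. Normal-22, of the wild type group itself, stood at 40.2 to 77.6% of the wild type mean. It set the low end of the wild type range for all 10 genes. Without Normal-22, 5xFAD-3 lay below the other wild type libraries for each of the 9 but Kl. In the same way 5xFAD-2 lay below them for Kl, Slc4a5, Prlr and Enpp2, and above them for Kcnj13.

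Between the groups none of the 9 genes passed the test. Fold changes were computed on log2(FPKM + 0.1) with limma, fitted over the 13094 protein-coding genes with a mean of at least 1 FPKM, which all 10 members passed. The row of Ttr stayed in that fit, and nothing is read from it. At a Benjamini-Hochberg adjusted p under 0.05 none of the 9 was called, against 0.0382% of all genes tested, and at an unadjusted p under 0.05 none of the 9 was called either, against 7.95% of all genes. None of the 9 had groups that did not overlap, against 4.34% of all genes. The log2 fold changes of 5xFAD over wild type were all below 0, from -1.24 for Prlr to -0.32 for Aqp1, with a median of -0.79 against -0.01 over all genes tested. Their standard errors of 0.377 to 1.28 were of the size of the changes, and their adjusted p-values from limma were 0.733 to 0.848. Exact two-sided permutation tests over the 70 ways to choose 4 of 8 libraries, with a smallest possible p of 0.0286, gave 0.314 to 0.857 for the single genes.

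Without 5xFAD-1 the direction turned for 7 of the 9. The median log2 fold change was then 0.22, with values from -0.14 for Slc4a5 to 0.39 for Kcnj13, and adjusted p-values from limma of 0.772 to 0.958. None of the 9 passed an unadjusted p under 0.05, against 6.54% of all genes. The exact permutation p-values over the 35 ways were 0.371 to 0.83, where 0.0571 is the smallest possible. The 95% intervals of limma put the fold of Enpp2 in the other 3 5xFAD libraries over wild type between 0.616 and 2.25, that of Kl between 0.801 and 1.70 and that of Kcnj13 between 0.844 and 2.04. Differences inside these bounds could not be told from none with this number of libraries. With Normal-22 left out as well, an alternative added after the data were seen, the median of the 9 was -0.03. With Normal-22 alone left out, and 5xFAD-1 kept, it was -1.03.

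**Figure D2:**
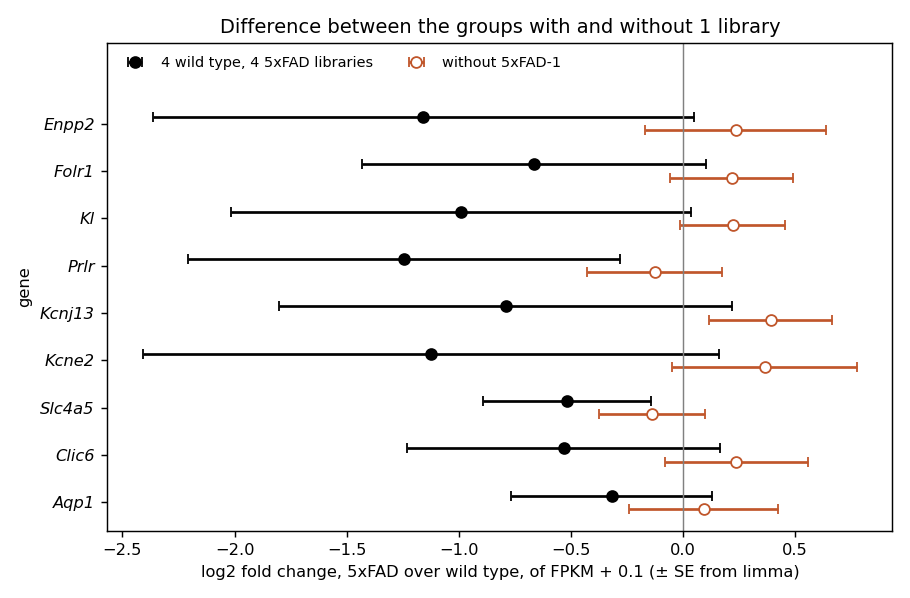
Points give the log2 fold change of 5xFAD over wild type, on FPKM + 0.1, for the 9 genes other than Ttr, with the standard error from limma as bars. With all 8 libraries (black) every point lies left of 0, and without 5xFAD-1 (open) 7 of the 9 lie right of 0 and the bars are shorter.

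The share of unread bases crossed with the groups in part. Within the libraries of a low share, where Normal-11 stood alone against 3 5xFAD libraries that include 5xFAD-1, the median log2 difference of the 9 genes was -1.68. Within those of a high share, where 5xFAD-21 stood alone against 3 wild type libraries that include Normal-22, it was 0.70. These differences have opposite signs and carry no test, since 1 group holds a single library in each. With the share as a term in the fit the median was -0.44.

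Beyond the members, the low values of 5xFAD-1 were found in few genes. Of the 8296 protein-coding genes with at least 5 FPKM in each of the other 7 libraries, 32 (0.386%) were at under 20% of the lowest of these in 5xFAD-1. Of the 32, 6 were members (Enpp2, Folr1, Kl, Prlr, Kcnj13 and Kcne2) and 10 belonged to a list of 25 further choroid plexus genes, of which 23 were measured in the fit. Foxj1 and Dynlrb2 of the ependyma list were among the rest, and the remaining genes, such as Drc7, were in no list used here. The same count was 0 in Normal-11, Normal-21, Normal-22, Normal-23, 5xFAD-2 and 5xFAD-3 and 1 in 5xFAD-21. Without the bound of 5 FPKM, 112 of 13094 genes were at under 20% in 5xFAD-1. The further choroid plexus genes at that level included Htr2c, a serotonin receptor, at 0.902 FPKM in 5xFAD-1 against 28.0 to 80.6 in the other 7 libraries, Car12, a carbonic anhydrase, at 1.05 against 30.8 to 75.4, Sostdc1, a secreted antagonist of Wnt and BMP signals, at 2.06 against 45.4 to 114, and Cldn2, a claudin of leaky tight junctions, at 2.00 against 14.9 to 43.7. These 4 were chosen after their values were seen.

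Not every gene of the further list followed. In 5xFAD-1, 18 of its 23 measured genes were below the other 7 libraries, against 2036 of all 13094 genes (15.5%). The abundant Calml4, a calmodulin-like protein, stood at 253 FPKM in 5xFAD-1 against 138 to 324 in the other 7, Slc39a4, a zinc transporter, at 143 against 62.3 to 174, and Rdh5, a retinol dehydrogenase, at 106 against 56.6 to 109. Cab39l, a scaffold of a kinase complex, lay between at 63.2 FPKM against 85.2 to 169. Over the groups the list had a median log2 fold change of -0.35, with 1 gene higher and 0 lower of 23 at an unadjusted p under 0.05, against 7.95% of all genes in either direction, and none at an adjusted p under 0.05. The 1 higher gene was Calml4, at 0.65 ± 0.21 (SE, adjusted p = 0.569 from limma). Without 5xFAD-1 the median of the list was 0.20 and 21 of the 23 genes lay above 0, against 6659 of all 13123 genes then tested. All 12 genes of the ependyma list lay above 0 as well, with a median of 0.57.

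**Figure D3:**
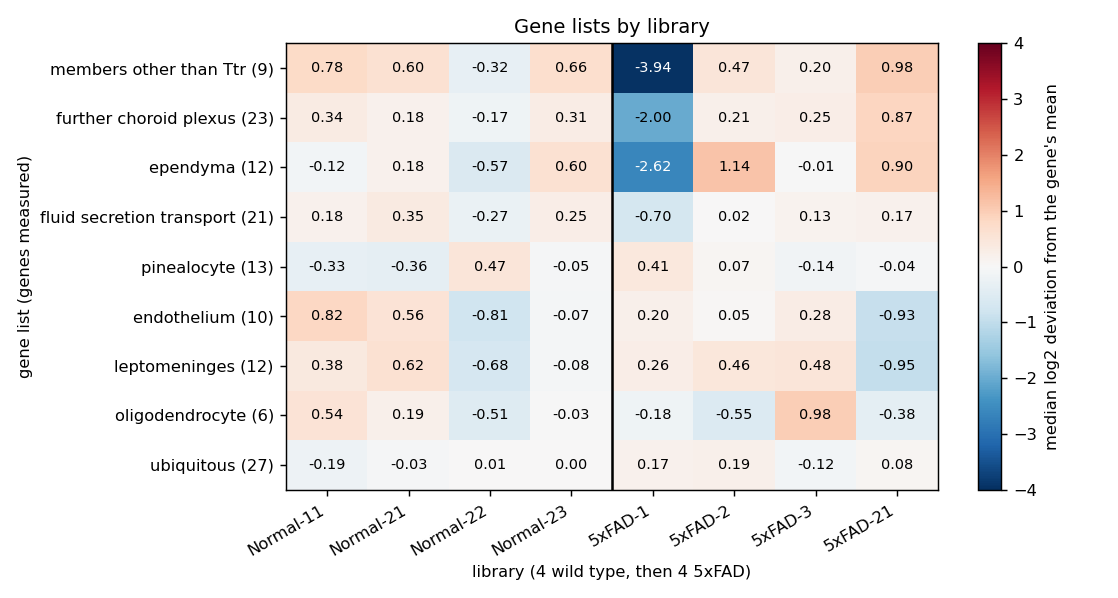
Cells give, for each gene list (rows, with the number of genes measured) and library (columns), the median over the genes of the log2 deviation from the gene's own mean of 8 libraries, on FPKM + 0.1. The 9 members other than Ttr are at -3.94 in 5xFAD-1, the further choroid plexus list at -2.0 and ependyma at -2.62, while pinealocyte genes are at 0.41 and ubiquitous genes at 0.17 in the same library.

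The transport machinery of fluid secretion, much of which other cells share, was less low in 5xFAD-1. Of 21 measured genes of that list 12 were lowest in 5xFAD-1, against 15.5% of all genes. Slc12a2, a sodium potassium chloride cotransporter that was chosen after its values were seen, stood at 25.7 FPKM against 43.4 to 110 in the other 7 libraries. Atp1b1, a subunit of the sodium pump, stood at 40.8 FPKM against 76.6 to 164, and Fxyd1, which modulates that pump, at 25.9 against 48.7 to 149. Slc4a10, a sodium-dependent bicarbonate transporter, at 99.9 FPKM lay within the range of 80.2 to 207 of the others. Between the groups 0 of the 21 were higher and 2 lower at an unadjusted p under 0.05, where 7.95% of all genes passed in either direction, and 0 of the 21 passed after adjustment. Among the 2 was Wnk4, a kinase that sets chloride transport, with a log2 fold change of -0.74 ± 0.27 (SE, adjusted p = 0.597 from limma). Without 5xFAD-1 Wnk4 was at -0.64 ± 0.29 and did not pass an unadjusted p under 0.05, and 1 lower gene of the list still did.

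The partners of transthyretin were measured in the same way. Of 20 genes for carriers, transporters, deiodinases and receptors of thyroid hormone and retinol 15 were tested, and 0 were higher and 1 lower at an unadjusted p under 0.05, against the same 7.95%. The lower gene was Crym, which binds thyroid hormone inside the cell, at -0.97 ± 0.33 (SE, adjusted p = 0.588 from limma). Rbp4, the retinol carrier that circulates bound to transthyretin and was chosen for that, stood at 9.05 to 21.8 FPKM in wild type and 10.1 to 30.4 in 5xFAD. Slco1c1, a thyroxine transporter, had wild type levels of 76.8, 69.8, 24.3 and 67.9 FPKM and 5xFAD levels of 7.36, 81.5, 60.9 and 81.3 FPKM, with 5xFAD-1 again the lowest. Crabp1, which binds retinoic acid, was the most abundant of the list, at 149 to 310 FPKM in wild type and 188 to 335 in 5xFAD. Of 21 binding partners of Kl, Prlr, Folr1 and Enpp2, 14 were tested and none passed an unadjusted p under 0.05. Plpp3, which degrades lysophosphatidic acid, was at 54.6 to 109 FPKM in wild type and 40.8 to 114 in 5xFAD, and Fgfr1, the receptor that klotho completes, at 17.2 to 40.8 and 18.0 to 32.1.

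Other tissues that a dissected gland or a shared marker could bring in were read from their own lists. The multiciliated ependyma, which lines the ventricle, was low in 5xFAD-1 for part of its list. Of its 12 genes 7 lay below the other 7 libraries there, against 15.5% of all genes. Foxj1, a master regulator of motile cilia that was chosen after its values were seen, stood there at 0.760 FPKM against 6.38 to 21.8, and Dynlrb2, a dynein light chain, at 1.34 against 8.36 to 36.6. Other genes of the list were not low there. Rarres2, the precursor of chemerin and the most abundant of the 12, stood at 51.4 FPKM in 5xFAD-1 against 20.5 to 62.2 in the other 7, Meig1 at 10.1 against 4.99 to 18.7 and Cfap126 at 11.1 against 7.12 to 20.9. The ependymal list summed to 80.2 FPKM in 5xFAD-1, within the 73.2 to 139 of wild type, and to 102 to 260 in the other 3 5xFAD libraries. Rarres2 alone made up 51.4 of the 80.2 FPKM. The median log2 deviation of the 12 genes in 5xFAD-1 was -2.62, so the sum does not describe most of them. The part of ependyma in the results was not tested. The 13 pinealocyte genes summed to 2010 to 4200 FPKM in wild type and 2814 to 4511 in 5xFAD. Of them 0 were lowest in 5xFAD-1, against the same 15.5% of all genes. The same count was 0 of 10 for endothelium, which shares Aqp1, 0 of 6 for oligodendrocytes, which share Enpp2, 1 of 12 for leptomeninges, 3 of 7 for red blood cell precursors and 1 of 27 for genes that every cell uses. For the retinal pigment epithelium, which shares Ttr, Kcnj13 and Enpp2, it was 0 of 5, and its defining Rpe65 was at 0.572 FPKM or less and Tyr at 0.115 or less in every library. At a share of 15.5% a list of 5 to 12 genes would hold few genes lowest in 5xFAD-1. A low count there is not read as sparing. At an unadjusted p under 0.05 between the groups, which 7.95% of all genes passed, and at none adjusted, these lists held Meig1 of ependyma at 0.83 ± 0.28 (SE), Rlbp1 of the retinal pigment epithelium at 0.83 ± 0.21, Igf2 of leptomeninges at -0.90 ± 0.37 and, of pinealocytes, Gngt1 at 1.16 ± 0.32, Sag at 0.89 ± 0.38, Neurod1 at 0.59 ± 0.25 and Cngb1 at -0.58 ± 0.23, and of the genes that every cell uses Hspa8 at 0.41 ± 0.17 and Ldha at 0.62 ± 0.19, all as log2 fold changes of 5xFAD over wild type. Without 5xFAD-1, Igf2, Sag, Neurod1 and Hspa8 no longer passed an unadjusted p under 0.05, which 6.54% of all genes then passed. Meig1, Rlbp1, Gngt1, Cngb1 and Ldha still did. Tmem212 of ependyma and Hsp90ab1 of the genes that every cell uses passed only then. Of the list for the subcommissural organ beside the gland, Sspo, its defining secreted protein, stood at 0.429 FPKM or less in every library. Of the 2 genes of that list with a mean of at least 1 FPKM, 1 was lowest in 5xFAD-1. This was Cfap52, at 0.230 FPKM there against 2.19 to 9.70 in the other 7 libraries. Car3, a carbonic anhydrase that fat makes in abundance, did not move with Sspo, and stood at 265 FPKM in 5xFAD-2 against 0.541 to 8.27 in the others, while Sspo was at 0.348 FPKM in 5xFAD-2.

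The 9 genes were high and low in much the same libraries. Over the 36 pairs among them the Pearson correlation of log2 values had a median of 0.978 over 8 libraries, which share the low 5xFAD-1, and of 0.848 over the 7 others, where it ranged from 0.538 to 0.980. Against the mean deviation of Folr1, Kl, Prlr, Kcnj13, Kcne2, Slc4a5 and Clic6, the most alike of all 13094 genes was Enpp2, at 0.999 over 8 libraries and 0.983 without 5xFAD-1, although it was not part of that mean. Drc7, a gene of ciliary dynein regulation, followed at 0.998 and 0.970. The next in order were Kcne2, Folr1 and Kcnj13, which are part of the mean, at 0.997, 0.997 and 0.996. Aqp1, the other member outside the mean, was at 0.898 and 0.889. No correlation is given for Ttr, since its listed 0 in every 5xFAD library, for which it was selected, would set the value. These are descriptions over 8 and 7 libraries and carry no test.

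The row of Ttr was examined together with its neighbours on the chromosome. Ttr lies on chromosome 18, from 20665280 to 20674321 on the plus strand of GRCm38 (GENCODE M21), with no other annotated gene inside it. Dsg2, a desmosomal cadherin that is the nearest protein-coding gene on its left and ends 60.8 kilobases before it, was at 2.09, 1.50, 0.989 and 2.19 FPKM in wild type and was listed at 0 in all 4 5xFAD libraries as well. Gm16090, an antisense gene that overlaps the end of Dsg2 and reaches to 19 bases before the start of Ttr, was at 0.166 to 0.445 FPKM in wild type and was likewise listed at 0 in all 4. Gm16090 was singled out after its values were seen. On the other side B4galt6, a galactosyltransferase 10.3 kilobases away, stood at 6.41 to 11.9 FPKM in wild type and 4.28 to 10.6 in 5xFAD, and Trappc8, a trafficking protein, at 17.3 to 18.3 and 18.6 to 21.4. Dsg3, on the left of Dsg2, was at 0.109 FPKM or less in every library. The listed 0 in 5xFAD thus covered Ttr and both genes next to it on the left, whose wild type values were far lower, while B4galt6 on the right was above 0 in every library. Gm10269, a processed pseudogene between Ttr and B4galt6, was listed at 0 in Normal-22, Normal-23 and 5xFAD-1 and was at 0.531 to 1.38 FPKM elsewhere. Genes with wild type values near those of Dsg2 on other chromosomes were also listed at 0 in 5xFAD, as given below. How often genes as low as Gm16090 were so listed was not counted.

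Genes listed at 0 over a whole group were few elsewhere. Of 21980 protein-coding genes, Ttr was the only one listed at 0 in every 5xFAD library and at or above 1 FPKM in every wild type library. In the opposite direction there were 3, all above 8 FPKM in every 5xFAD library. Zc3h7a, a zinc finger protein, was at 16.2 to 20.3 FPKM in 5xFAD, Cmss1, a ribosomal small subunit homolog, at 21.2 to 41.2, and Filip1l, which Cmss1 overlaps on the opposite strand, at 8.57 to 13.7. Filip1l was chosen after its values were seen. Over all 53710 genes of every class the counts were 1 and 6. The highest of the 6 was the lincRNA RP23-81C12.1, with 5xFAD levels of 1892, 1723, 3293 and 4426 FPKM and a listed 0 throughout wild type, the reverse of the pattern of Ttr. RP23-138L1.1, a processed pseudogene whose reads could be shared with its parent gene, was at 25.3 to 150.9 FPKM in 5xFAD and listed at 0 in wild type. A looser bound asked for a mean of at least 1 FPKM, and above 0 in every library, in the other group. At it 3 protein-coding genes and 1 antisense gene were listed at 0 in 5xFAD. The 3 were Ttr, Dsg2 and Defb2, the last on chromosome 8 at 0.583 to 1.98 FPKM in wild type. The antisense gene was RP23-143P18.1 on chromosome 2, at 0.600 to 2.20. Listed at 0 in wild type were 3 protein-coding and 6 immunoglobulin V genes, 2 lincRNAs, 1 processed pseudogene and 1 other RNA. Of the 28 genes that every cell uses, 27 were above 0 in every library and Malat1, one of the most abundant nuclear RNAs, was listed at 0 in all 8. A listed 0 was therefore read only as listed.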

How the data were processed

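RNA of pooled mouse pineal glands was depleted of ribosomal RNA and sequenced as stranded paired-end libraries. The deposited values are FPKM that the authors obtained with Cuffnorm for each library on the GENCODE M17 annotation, after trimming in Trimmomatic and alignment in STAR to the GRCm38 genome. Versions and the library normalization of Cuffnorm are not given in the sources used here. The FPKM of protein-coding genes summed to 320286 to 391275 per library. Of 53710 gene IDs 53616 matched GENCODE M21, which gave the positions.

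Protein-coding genes whose FPKM averaged 1 or more across all 8 libraries were tested on log2(FPKM + 0.1) with limma 3.58.1 (lmFit, eBayes with a trend) in R 4.3.3, with Benjamini-Hochberg adjustment over all 13094. A fold change on this scale understates the change of low genes. Single members were also tested by exact permutation of the libraries. The fit was tested on simulated data. Each library is a pool of glands, and p-values measure the spread between these pools. The members and lists were chosen with earlier results of these data known. Besides the members, the text names up to 4 genes of highest mean FPKM per list, list genes at an unadjusted p under 0.05, genes listed at 0 in a whole group and at or above 10 FPKM in every library of the other, the 5 genes most like the members, the neighbours of Ttr, and genes said to be chosen otherwise. Tables, promoter windows and figures were made in Python 3.11.15. Alternatives were other pseudocounts, filters and scalings, the share of unread bases or the replicate number as a term, no trend, and leaving out libraries. A few named items are not reported here.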

Additional observations from a re-analysis of the deposited data

Results flagged for a closer look

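Of 18 sets of 4 libraries, 9 genes in 2 groups, 7 held a library far from the other 3 by Dixon's gap ratio on log2(FPKM + 0.1), where chance flags about 1 in 20. In 5xFAD, 5xFAD-1 was far below the other 3 for Kl (ratio 0.86, at 4.27 FPKM), Prlr (0.886, at 1.77 FPKM), Kcnj13 (0.884, at 6.17 FPKM), Enpp2 (0.865, at 95.8 FPKM) and Kcne2 (0.885, at 1.29 FPKM). In wild type, Normal-22 was far below the other 3 for Folr1 (0.84, at 87.0 FPKM) and Enpp2 (0.918, at 2073 FPKM). The genes share their libraries, so these are not 7 separate observations.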

How the results depend on the processing

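None of the 9 genes other than Ttr passed an adjusted p under 0.05 in the main fit or in any of the 18 alternatives. All 9 stayed below 0 except where 5xFAD-1 was left out. The median log2 fold change of the 9 was -0.79, and -0.80 to -0.44 under the 9 alternatives of pseudocount, filter, scaling, trend and added terms. The replicate numbers shared by the groups did not pair the libraries (correlations of the deviations -0.34 to 0.24), and with the replicate block the median stayed at -0.79 and 0 genes passed. Leaving out 1 library at a time gave medians of -1.28 to 0.22 for the 9 and -0.67 to 0.20 for the further choroid plexus list, and 0 to 1 genes lower at an unadjusted p under 0.05. The highest of each came without 5xFAD-1. For the 7 genes that then turned above 0 the range over libraries left out was -1.55 to 0.22 for Kl, -1.10 to 0.22 for Folr1, -1.28 to 0.39 for Kcnj13, -0.94 to 0.24 for Clic6, -1.76 to 0.24 for Enpp2, -0.60 to 0.092 for Aqp1 and -1.74 to 0.36 for Kcne2. The 1 lower gene came without 5xFAD-21. Without both Normal-22 and 5xFAD-1, an alternative added after the data were seen, the further list stood at 0.17 and Kl (0.07), Folr1 (0.00487) and Kcnj13 (0.15) were above 0. With 3 or 4 libraries a group and 1 library this far from the rest, changes of the members smaller than the intervals given could not be seen. Over all protein-coding genes 5 passed an adjusted p under 0.05 in the main fit, 8 with no filter, 92 without Normal-22 and 16 without both libraries, and none of these counts held any of the 9.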
